A study of Mus musculus with 16 samples.

Results

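The genes described here are 10 mesothelial core genes, Msln, Upk1b, Upk3b, Lrrn4, Bnc1, Pkhd1l1, Chst4, Nkain4, Slpi and Tmem151a, found by symbol among the 27179 rows of the deposited table, each in 1 row. They were followed across 4 populations of Pdgfrb-positive cells that FACS had separated from epididymal white adipose tissue (C57BL/6 strain, postnatal day 7): smooth muscle cells (SMCs), mesothelial-like cells (MLCs), adipocyte precursor cells (APCs) and fibro-inflammatory progenitors (FIPs), with 4 libraries each and no other treatment or allele named in the labels. The labels do not say whether the 4 libraries of a population came from separate animals, pools or sorts, and a p-value therefore speaks of library-to-library variation alone, part of which could be technical. The genes were chosen by their rise in MLCs above the mean of APCs and FIPs, so their levels in MLCs, and the SMC level as a share of the MLC level, are given as descriptions without a test. The difference between APCs and FIPs was not part of that choice and was tested.

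Mesothelium is the single layer of flattened epithelial cells that covers the abdominal organs, the body wall and visceral fat pads. It arises from mesoderm, keeps both epithelial keratins and mesenchymal transcription factors, and carries on its free surface a coat of glycoproteins that lets organs slide over each other. Mesothelin (Msln), a surface protein held by a lipid anchor, binds the mucin Muc16, and uroplakins, best known from the bladder lining, are membrane proteins of the same surface.

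The promoters of 4 genes are shown because the genes behind them were all high in MLCs but kept different shares of that level in SMCs. Upk3b and Lrrn4 kept close to the median share of the MLC level there, while Slpi and Chst4 had the lowest shares. Each line is the RefSeq window of 250 bases before to 50 after a gene start on GRCm38.p6, read 5′ to 3′ along the gene's strand. Capitals mark the letters GGAATG or their reverse complement (the core of TEAD factor motifs) and TGANTCA (the AP-1 motif). The Lrrn4 window lies at a start inside the gene's longest RefSeq span.

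Upk3b promoter, chr5:136038246-136038545, plus strand: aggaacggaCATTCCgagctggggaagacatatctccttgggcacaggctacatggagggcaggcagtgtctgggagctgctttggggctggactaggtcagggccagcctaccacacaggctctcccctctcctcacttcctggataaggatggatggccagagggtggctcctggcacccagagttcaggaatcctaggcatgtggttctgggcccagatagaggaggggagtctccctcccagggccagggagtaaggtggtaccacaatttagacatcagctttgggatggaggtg

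Lrrn4 promoter, chr2:132880813-132881112, minus strand: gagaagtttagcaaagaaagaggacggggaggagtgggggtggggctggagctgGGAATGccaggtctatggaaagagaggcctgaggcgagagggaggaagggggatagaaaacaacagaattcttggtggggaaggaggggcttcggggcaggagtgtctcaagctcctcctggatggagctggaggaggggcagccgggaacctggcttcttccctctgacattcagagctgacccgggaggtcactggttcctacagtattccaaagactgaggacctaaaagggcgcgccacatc

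Slpi promoter, chr2:164356458-164356757, minus strand: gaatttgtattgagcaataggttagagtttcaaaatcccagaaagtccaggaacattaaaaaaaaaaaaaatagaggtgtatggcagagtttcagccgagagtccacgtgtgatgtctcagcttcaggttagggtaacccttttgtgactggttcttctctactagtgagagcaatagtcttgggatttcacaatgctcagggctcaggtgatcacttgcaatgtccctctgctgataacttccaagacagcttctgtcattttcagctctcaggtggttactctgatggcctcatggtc

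Chst4 promoter, chr8:110039285-110039584, minus strand: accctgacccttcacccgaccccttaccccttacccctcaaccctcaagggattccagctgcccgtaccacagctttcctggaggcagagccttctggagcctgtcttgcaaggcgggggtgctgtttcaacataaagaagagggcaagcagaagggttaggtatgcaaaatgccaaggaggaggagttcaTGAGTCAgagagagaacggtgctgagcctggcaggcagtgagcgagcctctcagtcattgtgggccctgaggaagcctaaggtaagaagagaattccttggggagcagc

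Windows were found for 6 of the 10 genes, and both strands of each were searched for 7 motifs. GGAATG was in 2 of them (Upk3b and Lrrn4), against 14.7% of all 32851 promoter windows of the same length, and TGANTCA was in 1 (Chst4), against 7.81%. The windows of Bnc1 and Tmem151a, which are not printed, lacked GGAATG. Their SMC shares of the MLC level were 8.01% and 10.5%, beside 8.70% for Upk3b and 8.77% for Lrrn4. The WT1 and EGR pattern GNGGGNGNG was in 4 (43.8% of all), GGGNGG, the core of SP motifs, which can overlap it, in 4 (68.6%) and the E-box CANNTG in 4 (72.3%). The motif AGATAA of GATA factors and the core promoter box with the letters TATAAA were in 0, against 11.2% and 13.6% of all windows. The 6 windows did not share a base composition. Bnc1 (50 CpG pairs, 83.3% G and C) and Tmem151a (43 CpG pairs, 77.3%) had CpG-rich starts, and the other 4 had 2 to 7 CpG pairs beside a median of 7 over all windows.

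The labels were checked against cell type markers before the genes were compared. The MLC libraries held 9 mesothelial markers, of which Msln, Upk3b and Lrrn4 are also core genes, at a summed 125020 to 129270 normalized counts, although Calb2, coding for calretinin, averaged 0.432 and Krt5 2.70. The summed level of the same markers was 9110 to 14424 in SMCs, 3835 to 4313 in APCs and 2984 to 3537 in FIPs. In APCs and FIPs Wt1 made up most of it (3996 ± 179 in APCs, 2880 ± 208 in FIPs). Here and below ± is the SD over the 4 libraries of a population unless given as SE. For values in the progenitors it is the SD over the 8 APC and FIP libraries, which includes any difference between APCs and FIPs. The SMC libraries were higher in Acta2, coding for smooth muscle actin (4537 ± 1304 in SMCs and 1428 ± 231 in MLCs), but Myh11, coding for smooth muscle myosin, averaged 1262 ± 412 in SMCs and 1288 ± 79.9 in MLCs. SMC libraries also kept the fibroblast receptor Pdgfra at 23838 ± 1968, beside 20555 ± 248 in APCs and 22966 ± 975 in FIPs, so SMCs here means the sorted gate of that name. Pdgfrb itself averaged 457 ± 28.0 in MLCs, against 3787 ± 411 in SMCs, 4717 ± 166 in APCs and 2862 ± 198 in FIPs. Dpp4 averaged 8805 ± 405 in MLCs, 2053 ± 275 in FIPs, 340 ± 86.3 in SMCs and 52.6 ± 26.6 in APCs. Depth was 9.20 to 27.5 M reads per library, and SMCs replicate 3 and APCs replicate 4 were the shallowest.

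All 10 genes were at their highest in the 4 MLC libraries, with no overlap with any other population. Together they made up 0.775% ± 0.0138 of all normalized counts in MLCs, against 0.00197% ± 0.000238 in APCs and 0.00193% ± 0.000251 in FIPs. Nkain4 made up much of the progenitor sums, and the other 9 genes summed to 105 ± 27.8 normalized counts in APCs and 260 ± 54.1 in FIPs. On the log2(value + 1) scale the fitted difference between MLCs and the mean of APCs and FIPs was 9.21 to 9.91 for 9 genes and 4.03 ± 0.07 (SE) for Nkain4, with a median of 9.61 over the 10 and of 0.01 over all 15024 genes tested. All 10 were called higher in MLCs, as were 18.2% of all genes tested (limma, Benjamini-Hochberg adjusted p under 0.05 and at least 2-fold); this is the contrast that chose them, so nothing is read from the count. The MLC libraries alone carried all 10 through the filter on low values, and 6 of the 10 also passed on the APC and FIP libraries alone. Of the 10 genes with the largest rise 9 are members; Krt7, a keratin, at 9.37 is not, the next below them was Krt19 at 9.14, and Nkain4 ranked 592.

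**Figure D1:**
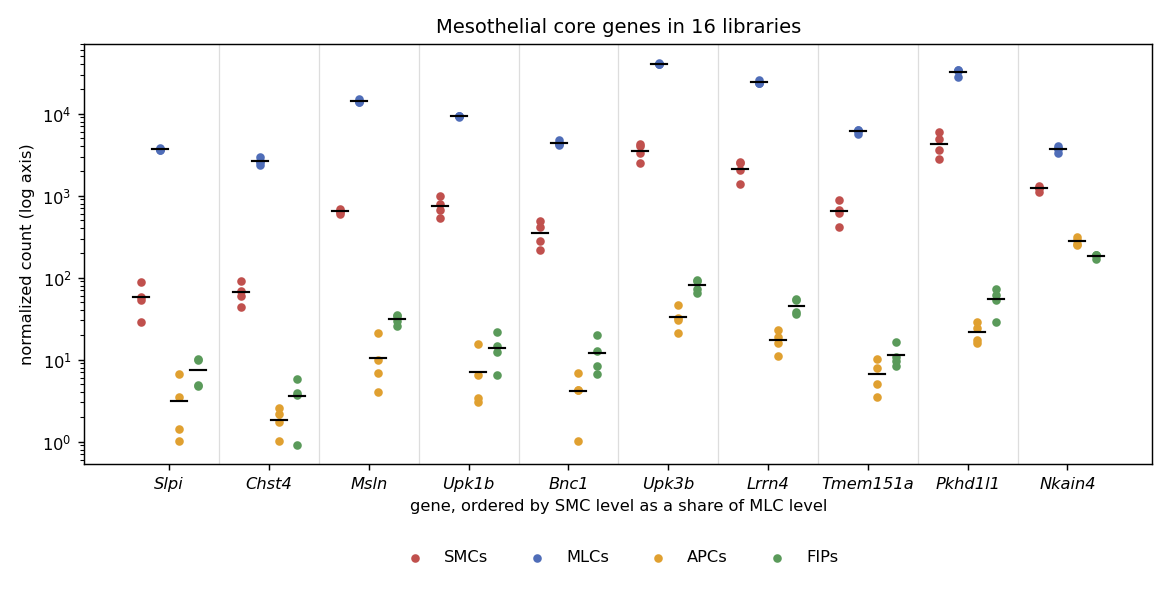
Normalized counts (log axis) of the 10 genes in each of the 16 libraries, with points for libraries and bars for means of 4. The MLC points lie above all others for each gene, and the APC and FIP points of Nkain4 lie between 170 and 310 where those of the other 9 genes are at 94.3 or less.

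Among the surface glycoproteins and uroplakins, Upk3b had the highest level per exon length in MLCs. Upk3b, a uroplakin with a single membrane span (Entrez gene 100647; GRCm38 chromosome 5, 136038496 to 136044993), was at 39960, 41414, 40503 and 40328 normalized counts in MLCs, against 32.1, 21.1, 30.7 and 46.7 in APCs and 73.2, 64.7, 91.7 and 94.3 in FIPs. The 4 MLC values had a CV of 1.52%, and the FIP values all lay above the APC values. Per kilobase of GENCODE M21 exon sequence Upk3b reached 11488 normalized counts in MLCs, rank 21 of the 24689 genes with a length. Upk1b, a uroplakin of the tetraspanin family (Entrez gene 22268; chromosome 16, 38773182 to 38800203), was at 9366, 9430, 9448 and 9198 in MLCs, against 3.38, 3.02, 6.43 and 15.6 in APCs and 14.8, 6.47, 12.4 and 21.8 in FIPs. Its variation between MLC libraries was the smallest of the 10 genes, a CV of 1.22%, while its few progenitor reads overlapped between APCs and FIPs. Msln (Entrez gene 56047; chromosome 17, 25748613 to 25754378) was at 14463, 14030, 13878 and 15213 in MLCs, against 21.1, 4.03, 10.01 and 6.92 in APCs and 29.7, 25.9, 34.4 and 35.4 in FIPs. Every FIP library was above every APC library for Msln. Per kilobase of exon Msln (4698) and Upk1b (4481) were at ranks 89 and 90 in MLCs.

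Membrane proteins of less settled function followed. Lrrn4, a leucine-rich repeat protein of the neuronal LRRN family (Entrez gene 320974; chromosome 2, 132866686 to 132894010), was at 25703, 23640, 23504 and 23918 normalized counts in MLCs, against 16.1, 11.1, 22.9 and 19.0 in APCs and 53.4, 37.9, 36.3 and 54.4 in FIPs. Pkhd1l1, a very large protein related to the polycystic kidney disease protein fibrocystin (Entrez gene 192190; chromosome 15, 44457396 to 44601376), was at 33470, 27705, 34041 and 34179 in MLCs, against 24.5, 16.1, 28.6 and 17.3 in APCs and 53.4, 28.7, 62.1 and 73.5 in FIPs. For Pkhd1l1 MLCs replicate 2 was below the other MLC libraries, and its 18536 exon bases put it at 1745 per kilobase in MLCs, rank 331. Tmem151a, a transmembrane protein (Entrez gene 381199; chromosome 19, 5079333 to 5085491), averaged 6134 ± 320 in MLCs, 6.62 ± 2.97 in APCs and 11.3 ± 3.53 in FIPs. Nkain4, which binds the sodium pump (Entrez gene 58237; chromosome 2, 180934766 to 180954937), was at 3301, 3985, 3863 and 3690 in MLCs, against 256, 253, 310 and 291 in APCs and 187, 170, 187 and 189 in FIPs. It was the 1 gene of the 10 with a clear progenitor level, and the APC libraries all lay above the FIP libraries.

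The set also held a transcription factor, an enzyme and a secreted inhibitor. Bnc1, the zinc finger factor basonuclin 1 of proliferating keratinocytes and germ cells (Entrez gene 12173; chromosome 7, 81966657 to 81992299), was at 4826, 4255, 4138 and 4386 normalized counts in MLCs, against 4.23, 1.01, 4.29 and 6.92 in APCs and 12.9, 8.32, 6.68 and 19.95 in FIPs. Chst4, a Golgi sulfotransferase that adds sulfate to N-acetylglucosamine and makes L-selectin ligands (Entrez gene 26887; chromosome 8, 110029075 to 110039401), averaged 2624 ± 243 in MLCs and was at 2.54, 1.01, 2.14 and 1.73 in APCs and 3.96, 3.70, 5.73 and 0.907 in FIPs. Slpi, the secretory leukocyte protease inhibitor of mucosal surfaces (Entrez gene 20568; chromosome 2, 164354070 to 164356507), averaged 3666 ± 73.1 in MLCs and was at 6.76, 1.01, 1.43 and 3.46 in APCs and 4.95, 10.2, 4.77 and 9.98 in FIPs. APCs and FIPs overlapped for all 3. The progenitor values of these genes rest on few reads, 8 for Chst4 and 13 for Slpi over the 4 APC libraries, so their size is known only roughly. Bnc1, Nkain4 and Slpi share 98, 55 and 1 exon bases with another GENCODE gene, and the strand setting of the counting is not given in the sources used here.

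In SMCs the 10 genes had intermediate levels and no common share of their MLC level. The mean share was 1.57% ± 0.687 for Slpi, 2.52% ± 0.758 for Chst4, 4.45% ± 0.26 for Msln, 7.96% to 8.77% for Upk1b, Bnc1, Upk3b and Lrrn4, 10.5% ± 3.13 for Tmem151a, 13.4% ± 4.3 for Pkhd1l1 and 33.1% ± 2.52 for Nkain4 (SD over 4 SMC libraries, against the MLC mean), with a median of 8.35%. For 171 other genes at least 32-fold higher in MLCs than in the progenitor mean and at 500 or more in MLCs, the median share was 9.79%, with quartiles of 7.204% and 13.7%. The shares of Slpi and Chst4 lay above those of 3 and 4 of these 171 genes, and that of Nkain4, which is itself under the 32-fold limit, above those of 168. In bulk libraries a smaller number of cells with a gene and less RNA per cell cannot be told apart.

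**Figure D2:**
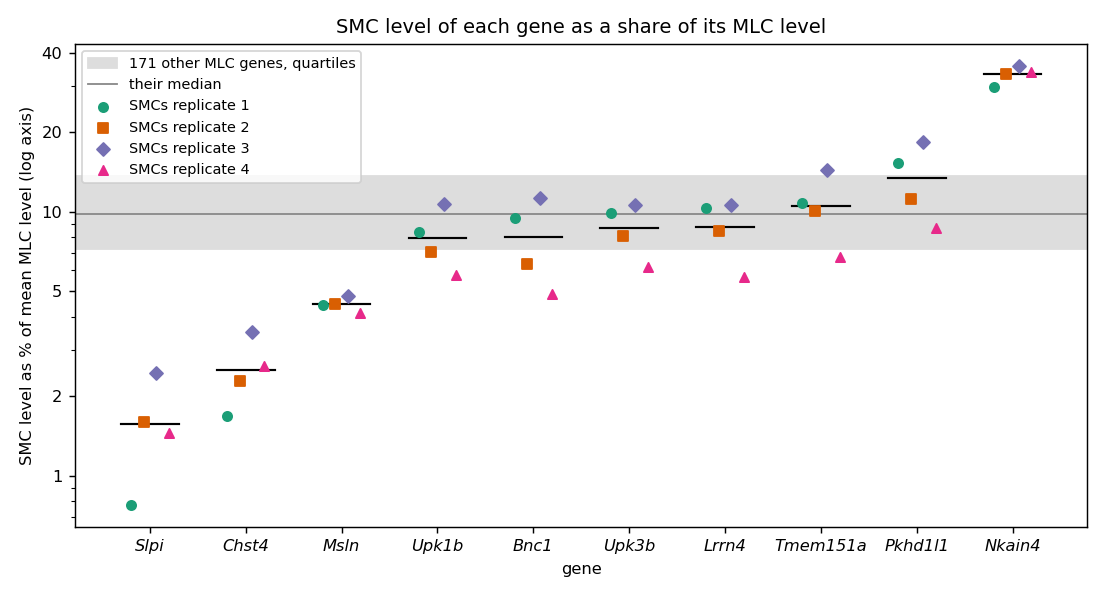
Level of each gene in the 4 SMC libraries as a percentage of its mean over the 4 MLC libraries (log axis), with bars for the means. Grey shows the quartiles and median of 171 other genes high in MLCs. Slpi and Chst4 sit at 0.775% to 3.50% and Nkain4 at 29.6% to 35.6%, both outside the grey band.

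The SMC libraries spread the genes in the same direction. Slpi had the lowest share and Nkain4 the highest in all 4, and the highest share was 38.2, 20.8, 14.6 and 23.3 times the lowest in SMCs replicates 1 to 4. Slpi was at 28.4, 58.7, 89.7 and 53.1 normalized counts in SMCs, against 3595, 3760, 3686 and 3623 in MLCs. Chst4 was at 44.2, 59.8, 91.8 and 68.5 in SMCs, against 2619, 2606, 2338 and 2932 in MLCs. Neither reached 100 in any SMC library, and SMCs replicate 1 was lowest for both. Msln was at 640, 641, 687 and 596 in SMCs, against the 13878 to 15213 in MLCs given above. Nkain4 was at 1099, 1237, 1322 and 1255 in SMCs, against 3301 to 3985 in MLCs. These 2 genes were the steadiest across the SMC libraries, with CVs of 5.84% for Msln and 7.60% for Nkain4.

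The other 8 genes varied more between SMC libraries than between MLC libraries. Pkhd1l1 was at 4926, 3598, 5946 and 2814 normalized counts in SMCs, against 27705 to 34179 in MLCs, and Upk3b at 4022, 3278, 4311 and 2503 in SMCs, against 39960 to 41414 in MLCs. Bnc1 was at 418, 280, 497 and 215 in SMCs, against 4138 to 4826 in MLCs. The median CV of the 10 genes was 28.3% in SMCs and 4.72% in MLCs, beside medians of 11.8% and 7.07% over all genes tested and of 7.22% and 4.42% over genes averaging 500 or more in the population. SMCs replicate 3, the shallowest SMC library, was the highest for all 10 genes and SMCs replicate 4 the lowest for 7. Of the 171 other genes high in MLCs, 103 were highest in SMCs replicate 3 and 120 lowest in SMCs replicate 4, and their median share was 10.6%, 9.13%, 12.1% and 7.45% in SMCs replicates 1 to 4 (9.71%, 7.56%, 10.7% and 5.70% for the 10 genes). Other marker lists differed between the same libraries, with smooth muscle sums of 15422, 13679, 16092 and 11127, adipocyte sums of 979, 602, 1324 and 644 and endothelial sums of 3781, 4287, 3482 and 3879 in SMCs replicates 1 to 4; the first 2 lists were also highest in replicate 3, and the endothelial list was lowest there. The 9 mesothelial markers, 3 of them core genes and 0 of them at 0 in SMCs, summed to 12475, 11078, 14424 and 9110 in the same libraries. The part of MLCs inside the SMC gate, or of depth, in these levels was not tested; without SMCs replicate 3 (and APCs replicate 4) the median share was 7.55%.

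Relative to the progenitors the SMC level was higher for all 10 genes, by a fitted log2 difference of 2.44 ± 0.07 (SE) for Nkain4, 3.33 ± 0.33 for Slpi, 4.25 ± 0.27 for Chst4 and 5.17 to 6.93 for the others (median 5.78, and 0.00 over all genes). All 10 were called higher in SMCs, as were 13.2% of all genes tested. The progenitor libraries are the ones in which the genes were chosen to be low, so nothing is read from that count.

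Between the progenitor populations most of the genes were lower in APCs than in FIPs, at levels far below those in MLCs. Of the 10 genes 7 were called lower and 0 higher in APCs, where 10.4% of all genes were called, 5.2% of the 15024 tested lower and 5.22% higher in APCs (limma, Benjamini-Hochberg adjusted p under 0.05 and at least 2-fold), and the median log2 difference was -1.21 over the 10 genes and -0.01 over all. Msln fell by 1.69 ± 0.27 on the log2 scale (SE, limma adjusted p = 4.89e-05), Upk3b by 1.32 ± 0.18 (adjusted p = 9.34e-06), Lrrn4 by 1.37 ± 0.20 (adjusted p = 1.37e-05) and Pkhd1l1 by 1.25 ± 0.25 (adjusted p = 0.000417). Bnc1 (-1.39, adjusted p = 0.00376), Slpi (-1.16, adjusted p = 0.0182) and Upk1b (-1.01, adjusted p = 0.028) passed the same limits on 13 to 59 reads per population. Bnc1, Slpi, Tmem151a and Chst4 entered the test only through their MLC and SMC levels, so their p-values are given as a description. The adjusted p-values above come from 1 model of 16 libraries, whose residual variance for a gene is shared by all 4 populations. The median CV of the 10 genes was lower in MLCs than in APCs or FIPs. In a fit of the 8 APC and FIP libraries alone the limma adjusted p-values of these 7 genes were larger. That fit kept the genes that had passed the filter over all 16 libraries. The limma adjusted p-values of Msln (0.00711), Upk3b (0.00146), Lrrn4 (0.00163) and Pkhd1l1 (0.00839) still passed. So did that of Bnc1 (0.0382), which is again a description, since its MLC and SMC levels brought it into the fit. Slpi (limma adjusted p = 0.0751) and Upk1b (0.134) did not pass in that fit. In the model of 16 libraries Tmem151a at -0.73 (adjusted p = 0.0268) and Nkain4 at 0.59 ± 0.08 (adjusted p = 5.88e-06) stayed under the fold limit. Chst4 at -0.57 ± 0.31 did not pass the test in that model (adjusted p = 0.159). The FIP libraries all lay above the APC libraries for 4 genes (Msln, Upk3b, Lrrn4 and Pkhd1l1), as for 20.1% of all genes tested, and the APC libraries all lay above for Nkain4, as for 19%.

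The count of 7 rested on low values. Bnc1, Chst4, Slpi and Tmem151a reached 10 in 2, 0, 1 and 3 of the 8 progenitor libraries and passed the filter on low values through MLCs and SMCs. With that filter set on the progenitor libraries, an alternative chosen after seeing the data, 5 of the 6 genes left were called lower in APCs, beside 4.72% of 13757 genes; because the core genes entered by different routes, the count of 7 is given as a description. APCs replicate 2 was the lowest APC library for 9 of the 10 genes, and without it 4 were called, Bnc1, Slpi and Upk1b no longer passing; FIPs replicate 4 was the highest FIP library for 8. edgeR on whole reads, which leaves out APCs replicate 2 and FIPs replicate 1, called 3, namely Msln, Upk3b and Lrrn4, with Pkhd1l1 at an adjusted p = 0.053 by its quasi-likelihood test. The part of the method and of the libraries left out in that count was not tested. As a share of the MLC level the 9 genes other than Nkain4 were at 0.0669% to 0.108% in APCs and 0.136% to 0.272% in FIPs, and Nkain4 at 7.47% ± 0.741 in APCs and 4.94% ± 0.236 in FIPs. The median share of the 171 other genes was 0.692% in APCs replicate 2 and 0.824% to 0.906% in the other APC libraries, 0.93% in FIPs replicate 4 and 0.714% to 0.908% in the other FIP libraries, and the part of a few MLCs in either gate was not tested. Epithelial markers moved the same way, at very low levels. Epcam, an epithelial adhesion protein, averaged 1.18 ± 1.46 in APCs and 15.0 ± 13.7 in FIPs, and Cdh1, coding for E-cadherin, 1.48 ± 2.498 in APCs and 7.25 ± 3.85 in FIPs. Both were higher in MLCs, at 81.6 ± 22.1 for Epcam and 38.1 ± 5.40 for Cdh1, so they do not set epithelial cells apart from MLCs. A list of 4 epithelial markers summed to 0.715 to 8.65 in APCs and 8.59 to 45.5 in FIPs, with Krt5 at 0 in every APC library, and a list of 7 epididymal epithelium markers to 9.06 to 19.3 in APCs and 21.3 to 72.2 in FIPs, with 3 and 4 of the 7 at 0 in every library of APCs and of FIPs. The part of epithelial cells in the difference was not tested.

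**Figure D3:**
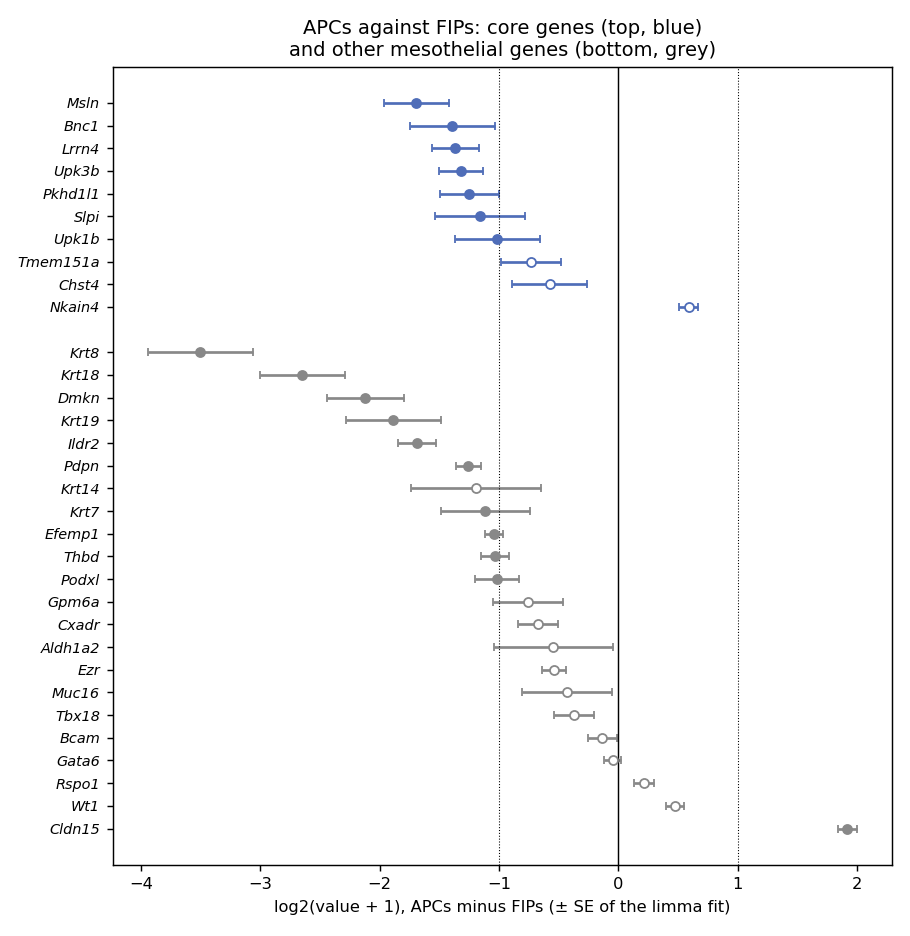
Fitted log2 difference between APCs and FIPs (points, ± SE of the limma fit) for the 10 core genes (top, blue) and 22 other mesothelial genes (bottom, grey); filled points passed both limits, open points did not. Of the core genes 9 lie left of 0 and Nkain4 lies right of it, at 0.59.

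Other mesothelial genes were lower in APCs more often than higher. Of a list of 24, all in the table and 22 tested, 10 fell and 1 rose in APCs against FIPs, beside 5.2% and 5.22% of all genes (median log2 difference -0.89, and -0.01 over all genes). Some of the 10 were themselves high in FIPs. Efemp1 averaged 16004 ± 1077 in FIPs and 14468 ± 441 in MLCs and was not called higher in MLCs. Thbd averaged 9429 in FIPs and 18719 in MLCs, and Pdpn 1715 in FIPs and 4324 in MLCs. The keratins of simple epithelia Krt8 (log2 difference -3.502, with 3.20 ± 2.96 in APCs and 39.0 ± 16.9 in FIPs) and Krt18 (-2.65) and the epithelial secreted protein Dmkn (-2.12) fell. Krt18 (8.20 ± 4.05 in FIPs) and Dmkn (13.8 ± 7.40 in FIPs) entered the test only through their MLC and SMC levels. Their calls, and the count of 10, are therefore given as a description. Cldn15, a claudin of tight junctions, rose by 1.92, to 594 ± 55.3 in APCs, against 156 ± 12.1 in FIPs. Of the 22, 20 were higher in MLCs than in the progenitor mean and none lower (18.2% of all genes were higher), while 14 were higher and 1 (Tbx18) lower in SMCs (13.2% and 3.62% of all genes). Msln's binding partner Muc16 averaged 54.7 ± 26.2 in SMCs and 922 ± 47.8 in MLCs, a share of 5.93% beside the 4.45% of Msln. Wt1, the transcription factor of mesothelium and of visceral fat progenitors, was not restricted to MLCs, with 3024 ± 468 in SMCs and 11868 ± 235 in MLCs.

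Relatives of the 10 genes moved in both directions. Of 23 family members on the list 17 passed the filter, 7 of them higher and 5 lower in MLCs than in the progenitors (18.2% and 11.9% of all genes), and the largest rise was a log2 difference of 5.87, in Wfdc2, a protease inhibitor gene of the Slpi family, which averaged 88.4 ± 7.29 in MLCs and 0.803 ± 1.34 over the 8 progenitor libraries. The other uroplakins of the bladder lining stayed low, with Upk2 at 2.17 ± 1.70 and Upk3a at 1.89 ± 1.10 in MLCs, and Upk1a at 16.6 ± 2.84 in MLCs and 17.5 ± 5.27 in the progenitors. Bnc2, the other basonuclin, was expressed in all populations and averaged 2065 ± 98.5 in MLCs and 330 ± 21.8 in the progenitors (log2 difference 2.64). Lrrn2 ran the other way, at 54.2 ± 7.46 in MLCs and 1043 ± 69.9 in the progenitors (log2 -4.25), as did the sulfotransferase gene Chst2, at 48.6 ± 9.0 in MLCs and 473 ± 167 in the progenitors (log2 -3.19).

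Some chromosomal neighbours were also high in MLCs. Of the 20 nearest RefSeq genes with a row in the table, 1 on each side, 16 were tested, 8 were higher in MLCs than in the progenitor mean and 1 lower, beside 18.2% higher and 11.9% lower over all genes. This count overlaps that of the family relatives. Mslnl beside Msln (23.2 ± 9.13 in MLCs) and Upk3bl beside Upk3b (39.4 ± 5.75 in MLCs) were called higher in both. Matn4, a matrix protein gene 32886 bases from Slpi, averaged 2768 ± 172 in MLCs and 12.2 ± 8.24 in the progenitors (log2 difference 8.04 ± 0.25). Both neighbours of Chst4 were high, Tat, coding for the liver enzyme tyrosine aminotransferase, at 120 ± 5.53 in MLCs and 0.332 ± 0.651 in the progenitors, and Zfp612, a zinc finger gene, at 478 ± 46.3 in MLCs and 7.3 ± 4.23 in the progenitors. Birc7, an apoptosis inhibitor gene 756 bases from Nkain4, averaged 84.3 ± 19.97 in MLCs and 6.2 ± 3.83 in the progenitors. Crls1, whose RefSeq span overlaps the end of Lrrn4, was at 2826 ± 285 in MLCs and 402 ± 38.2 in the progenitors, and reads of such adjoining genes may be shared. The neighbours of Pkhd1l1 and the tested one of Bnc1 were not called.

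**Figure D4:**
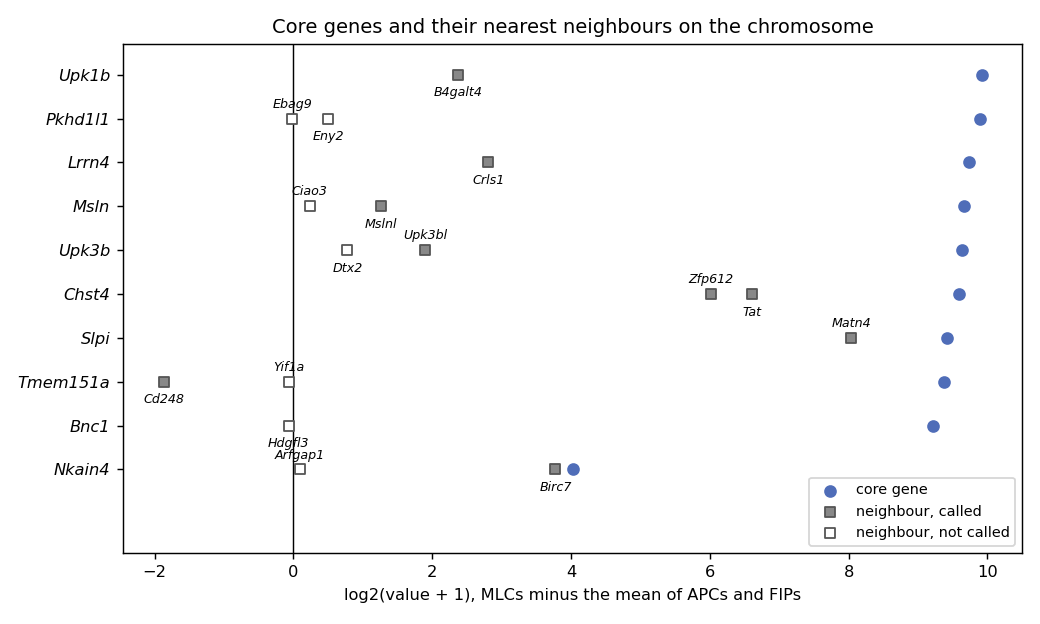
Fitted log2 difference between MLCs and the mean of APCs and FIPs for each core gene (circles) and its nearest tested neighbours (squares, filled where called). Matn4 beside Slpi lies at 8.04 and Tat and Zfp612 beside Chst4 at 6.61 and 6.02, while Cd248 beside Tmem151a lies at -1.87.

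The 5 genes most like the mean log2 profile of the 10 over the 16 libraries, out of 6427 others averaging at least 500 in MLCs, were Podxl, coding for the surface sialomucin podocalyxin (Pearson r = 0.9973), Cxadr, a junction adhesion protein and virus receptor (r = 0.9966), Tagap, a GTPase activating protein (r = 0.9965), Gpm6a, a membrane glycoprotein (r = 0.9965) and Mbp, known as the myelin basic protein (r = 0.9964). The 16 points fall into 4 populations, so these values mainly describe population means. Within the set, r with the mean of the other 9 genes ran from 0.960 for Slpi and 0.973 for Nkain4 to 0.997 for Upk3b. The shares of the 5 genes in SMCs were 6.89% to 11.6% of their MLC level. In APCs against FIPs, a difference that the likeness itself includes, the log2 values were -1.02 for Podxl, -0.68 for Cxadr, -0.50 for Tagap, -0.76 for Gpm6a and -0.96 for Mbp, and 1 of the 5 (Podxl) was called.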

How the data were processed

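RNA from 16 sorted samples was sequenced after NEBNext Ultra II preparation, per the labels' protocols. The deposited table gives a normalized signal per gene and library; its values have the form of read counts divided by 1 factor per library, as read from the values. Tools named are DESeq2 1.6.3, featureCounts 1.4.6, HISAT2 2.0.1 and Trim Galore 0.4.1, with builds GRCm38 and mm10, per the submitters' processing notes; the annotation is not given in the sources used here. The 4 columns headed SMLCs were taken as SMCs, since the other 12 names match the other titles. All values above 0 (100%) were whole multiples of 1 step per column within 0.01, in all 16 libraries. The steps of APCs replicate 2 (1.007) and FIPs replicate 1 (0.9893) lay close to 1. For that reason alone these libraries were left out of the edgeR fit, which used the other 14.

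Genes at 10 or more in at least 4 libraries were tested (15024) with limma 3.58.1 in R 4.3.3 (eBayes with trend) on log2(value + 1), in 1 model of 16 libraries with 4 groups, two-sided, Benjamini-Hochberg adjusted; called means adjusted p under 0.05 and at least 2-fold. The added 1 understates changes of low genes. edgeR 4.0.16 was run on the whole reads of 14 libraries and called 1499 genes in APCs against FIPs. Fits were tested on simulated data in which only genes with many reads were changed, so that test does not cover genes with few progenitor reads. Replicates of a population differed by a chi-square of at least 4.96 per degree of freedom, so none was counted as a copy. The named genes are the 10 genes, their chromosomal neighbours, the 5 most like genes and up to 4 called genes of a further mesothelial list. The family relatives, Muc16, Krt5, Calb2, Tbx18, Krt7, Krt19, Wt1, Efemp1, Thbd, Pdpn, Lcn8 and Crisp1 were picked after their values were seen. The genes and lists were chosen with earlier results of these data known. Sequences and gene spans are from RefSeq (GRCm38.p6), exon lengths from GENCODE M21.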

Additional observations from a re-analysis of the deposited data

Results flagged for a closer look

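In 40 groups of 4 libraries (10 genes in 4 populations) 2 single libraries stood far from the other 3, as chance alone would give for about 1 in 20 groups. Pkhd1l1 was at 27705 normalized counts in MLCs replicate 2, against 33470 to 34179 in the other MLC libraries. Nkain4 was at 170 in FIPs replicate 2, against 187 to 189 in the other FIP libraries.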

How the results depend on the processing

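The count of 7 genes lower in APCs than in FIPs was 4 with a pseudocount of 8 and 3 by edgeR on the whole reads of 14 libraries, and ran from 4 to 7 when single libraries were left out, lowest without APCs replicate 2; the cause was not tested. It stayed between 5 and 7 under the other alternatives, and Msln, Upk3b and Lrrn4 were called in each of the 27. Many of the 27 could not move the fitted difference between APCs and FIPs, only its error or the adjustment. These are the fits without single SMC or MLC libraries, with the replicate block, with other filters or on the APC and FIP libraries only. Scaling to equal totals moved the median difference of all genes between APCs and FIPs to 0.23 and the share of calls higher in APCs to 67.6%, and called 5 of the genes lower. Deviations from the population means correlated weakly between same-numbered APC and FIP libraries (0.062 to 0.116). Of these 8 libraries 5 correlated best with their own number. Whether the replicate numbers mark a pairing cannot be told from these values. With the replicate block 7 genes and 1567 of all genes were called. The median log2 difference of 9.61 between MLCs and the progenitor mean was 8.80 with a pseudocount of 8, 9.81 with equal totals, 9.42 with quantile normalization, and 9.50 to 9.67 without single libraries. The median of 5.78 between SMCs and the progenitor mean was 4.94 with a pseudocount of 8. The median SMC share of 8.35% moved between 7.55% and 9.30% without single libraries and was 7.71% with equal totals, 7.73% with quantile normalization and 8.21% with the progenitor mean subtracted. Leaving out APCs replicate 4 and SMCs replicate 3 together was chosen after seeing the data, gave 7 genes and a share of 7.55%, and so was leaving out single APC and FIP libraries for the MLC and SMC differences. The filter on the 8 APC and FIP libraries was also chosen after seeing the data. Progenitor values of most of the genes rest on few reads per library, which limits the comparison of APCs with FIPs.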
